A study of Mus musculus with 12 samples.

Results

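Liver tumors of mice lacking both E2F7 and E2F8 (genotype E2F7/8 DKO, double knockout) were compared with the liver of the same animals. Of the 12 libraries in the series, 8 belong to this comparison: 4 tumors and 4 livers, paired by the animal code that a tumor and a liver share, and numbered here as animals 1 to 4. The other 4 libraries are wild-type livers from other mice. The labels give genotype and tissue, and no age, sex, strain, method of deletion or tumor histology. All RNA was poly(A)-selected and sequenced on the SOLiD platform, and levels are RPKM, reads per kilobase of exon scaled to the total of mapped reads. All 4 tumor libraries carry the file tag L03 and all 4 DKO livers the tag L02. No source used here says what the tag stands for, and among the 8 DKO libraries tissue and tag cannot be told apart. Wild-type livers 1 and 2 carry L02 and wild-type livers 3 and 4 carry L03, and the difference between the means of these pairs, L03 minus L02, is called the wild-type difference below and given with most tested differences.

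E2F7 and E2F8 are atypical E2F transcription factors that bind DNA without a DP partner and repress genes of DNA replication and cell division. The liver lobule is zoned: hepatocytes next to the central vein run a WNT and beta-catenin program that includes glutamine synthetase, and hepatocytes around the portal tract carry most of the urea cycle and amino acid breakdown. Besides hepatocytes, liver holds Kupffer cells, the resident macrophages, and stellate cells, which store vitamin A and make collagen. Bulk RNA cannot tell fewer cells of a type from less RNA per cell.

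Depth was 9.274 to 12.323 M reads in the DKO livers and 12.702 to 15.956 M reads in the tumors, so 1 read in a 2 kb transcript was worth 0.0313 to 0.0626 RPKM over all 12 libraries. Hepatocyte genes were at liver levels in the tumors. Hnf4a, a master regulator of hepatocyte genes, was chosen after its values were seen. It was at 204, 156, 156 and 183 RPKM in livers 1 to 4 and at 149, 141, 172 and 212 RPKM in tumors 1 to 4. Summed RPKM of 24 hepatocyte genes was 74280 to 135900 in the livers and 103600 to 169400 in the tumors. The animals differed in how far the tumor stood from its liver. At least 2-fold differences on the log2(RPKM + 1) scale were found for 270 genes upward and 1488 downward in animal 1, 393 and 477 in animal 2, 49 and 136 in animal 3, and 735 and 354 in animal 4. Tumor 3 was thus the nearest to its own liver, and the correlation of tumor with liver across the genes tested was 0.982 in animal 3 against 0.935 to 0.954 in the others. Across all genes the median tumor minus liver difference was -0.09 on the log2 scale, and other scalings moved it to 0.01 or 0.02. In animals 1 to 4 this median was -0.39, -0.06, -0.16 and 0.21. The counts and list medians given by animal include this shift.

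Tumor and liver differed for few genes by the adjusted test, and most of those genes differed alike between the wild-type livers of the 2 tags. Of 11121 genes tested within pairs, 35 were higher in tumor (0.315%) and 35 lower (0.315%), 70 in all (0.629%; limma, Benjamini-Hochberg adjusted p under 0.05). At an unadjusted p under 0.05 there were 460 higher and 1421 lower. Over all genes tested, whatever the p, 4165 were higher and 6956 lower, with 7.89% higher and 16.4% lower in all 4 pairs. By size alone, 27 genes were at least 2-fold higher in all 4 pairs (0.243%) and 14 at least 2-fold lower in all 4 (0.126%). In 678 genes (6.1%) the tumors lay all above or all below the DKO livers, the share to set beside single genes without overlap named below. Of the 70 genes, 67 differed in the same direction between the L03 and the L02 wild-type livers, and the median wild-type difference was 0.938 times the tumor difference. In 26 of them (14 up, 12 down) the wild-type difference was at least as large, and in 57 it was at least 0.5 times as large, against 25.7% and 42.3% of all genes tested. With a term for the tag, fitted over all 12 libraries, 0 of 11121 genes passed in limma and 339 had an unadjusted p under 0.05. Leaving out animal 1 reduced the 70 calls to 20, leaving out animal 3 raised them to 259 and leaving out animal 4 raised them to 449.

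**Figure D1:**
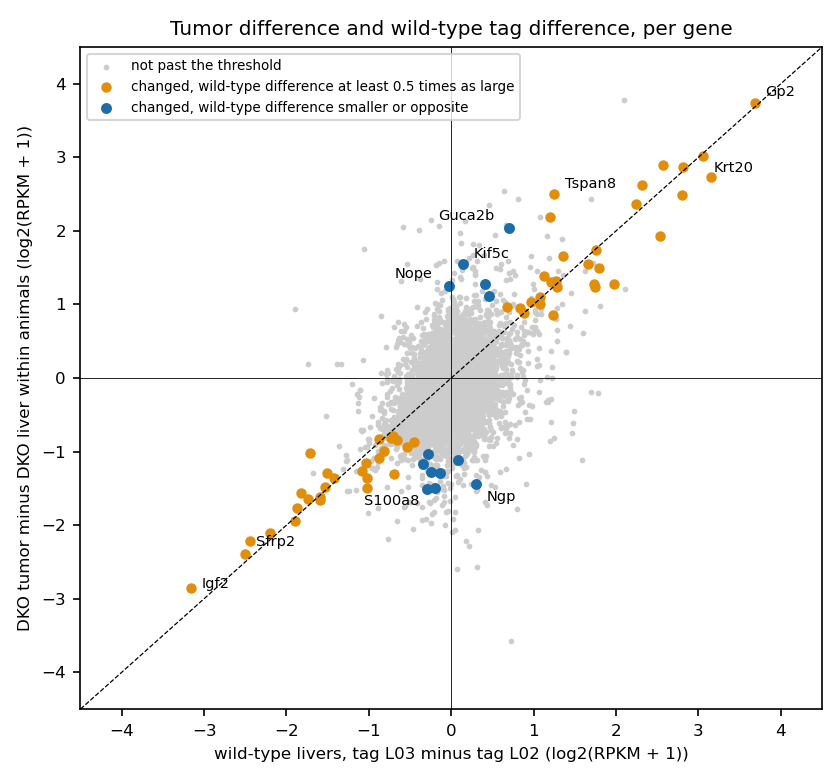
Tumor minus liver difference of each gene within DKO animals (vertical axis, log2 of RPKM + 1) against the L03 minus L02 difference between wild-type livers (horizontal axis, same scale), with genes passing the test drawn apart from the rest. Of the 70 genes that passed, 67 lie in the 2 quadrants where both differences have the same sign.

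The largest differences upward were of genes at or near 0 in every L02 library. Gp2, a glycoprotein of exocrine pancreas and of M cells, was at 0, 0.0504, 0.0410 and 0.0545 RPKM in livers 1 to 4 and at 13.2, 11.3, 16.5 and 11.2 RPKM in the tumors. Wild-type livers 1 and 2 had 0 and 0.0395 RPKM, and wild-type livers 3 and 4 had 14.5 and 10.1 RPKM, as much as the tumors. The tumor minus liver difference of Gp2 was 3.75 with a standard error of 0.17 (limma, adjusted p = 0.000266), and the wild-type difference was 3.69. Ccl20, a chemokine, followed the same split: 0.105, 0, 0.413 and 0.412 RPKM in livers, 7.82, 9.43, 10.7 and 5.26 RPKM in tumors, 0.160 and 0.597 RPKM in the L02 and 8.04 and 6.17 RPKM in the L03 wild-type livers. Krt20 (3.02 in tumor minus liver, 3.05 in wild type), Cldn13 (2.87 and 2.82), Spib (2.73 and 3.15), Sncg (2.63 and 2.31) and Mdk (1.75 and 1.76) did likewise. Krt20 and Cldn13 are epithelial genes, Spib a transcription factor of B cells and M cells, Sncg a synuclein and Mdk the growth factor midkine. All 7 passed the test in the pairs, and none passed once the tag had its own term.

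The same split ran through most of the larger falls. Igf2, the fetal growth factor, was at 10.4, 12.4, 8.16 and 7.65 RPKM in the livers and at 0.106, 1.13, 0.785 and 0.0564 RPKM in the tumors. Its level was 7.11 and 12.3 RPKM in the L02 wild-type livers and 0.178 and 0.149 RPKM in the L03 ones, so the L03 wild-type livers were as low as the tumors. Igf2 fell by 2.85 in the pairs (limma, adjusted p = 0.00109), and the wild-type difference was -3.16. The extracellular matrix genes Postn, Col1a2, Col6a1 and Col6a2 passed the test downward too, with wild-type differences larger still, so that the fitted difference turned positive with a tag term. Gsn, which severs actin filaments, was at 13.7, 8.30, 19.9 and 12.3 RPKM in livers and 1.43, 0.972, 8.36 and 2.93 RPKM in tumors (-1.94, wild-type difference -1.89, adjusted p = 0.0179 with limma), with 7.05 and 24.4 RPKM in L02 and 2.73 and 2.98 RPKM in L03 wild-type livers. Gapdh (-1.09, wild-type difference -0.87) and Fau (-1.35, wild-type difference -1.03) also passed downward. Both have near-identical copies in the genome that could take or give reads. Neither passed in limma with median-of-ratios scaling (adjusted p = 0.0932 and 0.064) or with voom (0.072 and 0.0873).

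After genes whose wild-type difference was at least 0.5 times as large were put aside, 13 of the 70 remained, 5 higher in tumor and 8 lower. Kif5c, Nope, AI851790, Slc9a7, Guca2b, Ngfr, Tcf21, Lrrc25 and Hcst among them were singled out after their values were seen. Kif5c, a heavy chain of the motor kinesin-1 that is best known from neurons (chr2:49474833-49630297 in mm9), was at 0.0967, 0.233, 0.119 and 0.268 RPKM in livers 1 to 4 and at 2.98, 2.69, 1.75 and 2.43 RPKM in tumors 1 to 4. All 4 tumors lay above all 8 livers, the wild-type livers being at 0.0183, 0.0685, 0.234 and 0.0822 RPKM. Kif5c rose by 1.54 on the log2 scale with a standard error of 0.15 (limma, adjusted p = 0.00499), against a wild-type tag difference of 0.15.

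Nope, now named Igdcc4, encodes a cell surface receptor of the immunoglobulin superfamily that marks fetal and tumor liver cells (chr9:64949301-64985749). Its level was 0.293, 1.48, 1.01 and 0.798 RPKM in the livers, 2.66, 5.69, 3.05 and 2.74 RPKM in the tumors and 0.282, 0.465, 0.379 and 0.305 RPKM in wild-type livers. Every tumor was above every liver, and Nope rose by 1.25 (SE 0.16, limma adjusted p = 0.0185) with a wild-type difference of -0.03. AI851790, now Tafa2 and coding for a secreted chemokine-like protein (chr10:122701131-123178034), was at 0.0799, 0.530, 0.490 and 0.990 RPKM in livers and 2.41, 3.0, 1.52 and 3.92 RPKM in tumors. It rose by 1.28 (SE 0.18, limma adjusted p = 0.0257; wild-type difference 0.41), and the lowest tumor, in animal 3, stood only slightly above wild-type liver 3 at 1.46 RPKM.

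Slc9a7, an exchanger of sodium and potassium for protons in the trans-Golgi network (chrX:19682880-19868889), was at 0.502, 0.727, 0.559 and 0.393 RPKM in livers and 3.27, 3.03, 1.64 and 1.75 RPKM in tumors. The groups did not overlap, and Slc9a7 rose by 1.12 (SE 0.17, limma adjusted p = 0.0339), with a wild-type difference of 0.46. Guca2b, uroguanylin, a peptide that activates guanylate cyclase C in gut (chr4:119329207-119331549), was at 0, 0, 0.676 and 0 RPKM in livers and 3.76, 3.15, 4.55 and 3.33 RPKM in tumors (2.04, SE 0.15, wild-type difference 0.70, limma adjusted p = 0.00138). For the 3 livers at 0, a floor of 3 reads is 0.413 to 0.539 RPKM, counting error only. Wild-type livers 2, 3 and 4 were near the tumors at 3.25, 2.94 and 2.46 RPKM and wild-type liver 1 was at 0.209 RPKM, so Guca2b was not split by tag but was also not a tumor marker against wild type.

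Tspan8, a tetraspanin of epithelia and many carcinomas (chr10:115254339-115286671), lay at the edge of the rule, with a wild-type difference of 1.25 beside a tumor difference of 2.50. It was at 3.72, 3.04, 6.84 and 4.85 RPKM in livers and 32.0, 51.7, 21.8 and 21.4 RPKM in tumors, and wild-type livers had 2.21, 4.20, 11.6 and 6.55 RPKM. Every tumor was above every liver of either genotype (limma adjusted p = 0.0305; 0.219 without animal 1 and 0.0561 without animal 4). Along with Kif5c, Nope, AI851790, Slc9a7, Guca2b, Chst4 and, downward, Hcst and 0610012D14Rik, it is 1 of 9 called genes whose 4 tumors all lay beyond both L03 wild-type livers. The gene 0610012D14Rik, now Aspdh, was at 52.6, 34.7, 31.1 and 30.0 RPKM in livers and 15.1, 12.7, 14.1 and 14.3 RPKM in tumors, and fell by 1.31 (limma, adjusted p = 0.0357) beside a wild-type difference of -0.69.

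Among the 8 genes that fell, Lrat is on the list of stellate cell genes and S100a8 and Ngp are on the list of neutrophil markers, while the other 5 are on no cell type list used here. Ngfr, the p75 neurotrophin receptor that marks stellate cells in liver (chr11:95430139-95449011), was at 4.45, 1.67, 3.65 and 2.35 RPKM in livers and 0.129, 0.139, 1.5 and 0.0783 RPKM in tumors. It fell by 1.51 (SE 0.23, limma adjusted p = 0.0369; wild-type difference -0.29), tumor 3 being the only tumor with more than 1 RPKM and still below the lowest DKO liver. Lrat, the enzyme that makes retinyl esters for storage in stellate cells (chr3:82696503-82707891), was at 4.76, 3.52, 14.3 and 2.74 RPKM in livers and 0.704, 0.840, 8.54 and 0.436 RPKM in tumors. Here the groups overlapped, because liver 3 and tumor 3 were both the highest of their group, while each tumor was below its own liver (-1.28, SE 0.20, wild-type difference -0.25, limma adjusted p = 0.0431). Tcf21, a transcription factor of mesenchymal cells (chr10:22537078-22539933), showed that pattern too, at 3.23, 1.86, 10.3 and 1.49 RPKM in livers and 0.408, 0.256, 5.29 and 0.217 RPKM in tumors (-1.16, SE 0.17, wild-type difference -0.34, limma adjusted p = 0.0339).

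Of the 5 neutrophil markers tested, all were lower in tumor and 2 passed the test, S100a8 and Ngp, where 6956 of 11121 genes were lower and 0.315% passed downward. With voom Ngp passed (adjusted p = 0.0477) and S100a8 did not (0.0551). S100a8, a subunit of the calcium-binding protein calprotectin (chr3:90472992-90473955), was at 13.3, 4.07, 46 and 9.08 RPKM in livers and 2.40, 1.61, 14.8 and 2.89 RPKM in tumors (-1.49, SE 0.21, wild-type difference -0.20, limma adjusted p = 0.0276). Ngp, a granule protein of immature neutrophils (chr9:110322352-110325513), was at 3.55, 1.87, 26 and 3.18 RPKM in livers and 0.673, 0.493, 7.76 and 0.238 RPKM in tumors (-1.44, SE 0.18, wild-type difference 0.31, limma adjusted p = 0.0179). Wild-type livers had 0.112 to 0.527 RPKM of Ngp, below every DKO liver and below tumor 3, with the other 3 tumors near that range. Animal 3 was highest in both tissues for both genes.

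Fermt3, which activates integrins in blood cells (chr19:7073467-7093920), was at 7.35, 2.68, 7.59 and 5.07 RPKM in livers and 1.21, 0.902, 3.65 and 1.31 RPKM in tumors (-1.29, SE 0.21, wild-type difference -0.13, limma adjusted p = 0.0482). Lrrc25, a leukocyte surface protein (chr8:73140742-73144748), was at 5.0, 2.43, 6.06 and 3.22 RPKM in livers and 1.33, 0.804, 2.20 and 1.10 RPKM in tumors (-1.11, SE 0.16, wild-type difference 0.08, limma adjusted p = 0.0269). Hcst, the signaling adaptor DAP10 of NK and T cells (chr7:31202730-31204872), was at 1.5, 1.13, 1.65 and 0.976 RPKM in livers and 0, 0.178, 0.158 and 0.151 RPKM in tumors (-1.04, SE 0.14, wild-type difference -0.28, limma adjusted p = 0.0254). The tumors lay below all DKO livers for Lrrc25 and Hcst, while for Fermt3 tumor 3 was above liver 2. Hcst stood at so few reads that 3 reads in tumor 1 would be 0.425 RPKM.

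These 13 calls rested on animal 1 more than on any other. Without animal 1 only Kif5c (adjusted p = 0.0426) and Guca2b (0.0207) passed in limma, and the other 11 had adjusted p of 0.126 to 0.212. Without animal 2, Slc9a7 (0.0663), Fermt3 (0.0643), Lrat (0.0967), Tcf21 (0.0868) and Lrrc25 (0.0663) missed the threshold, and without animal 3 or animal 4 all 13 passed. With median-of-ratios scaling 5 of the 13 passed and the others had adjusted p of 0.0555 to 0.0932. With voom on recovered reads 5 passed too, and the others had adjusted p of 0.0516 to 0.122. Without the animal block 4 of the 13 passed in limma over the 8 DKO libraries and 1 over all 12 libraries. With the tag term the 13 had differences of 0.66 to 1.75 in size and adjusted p of 0.655 or more.

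**Figure D2:**
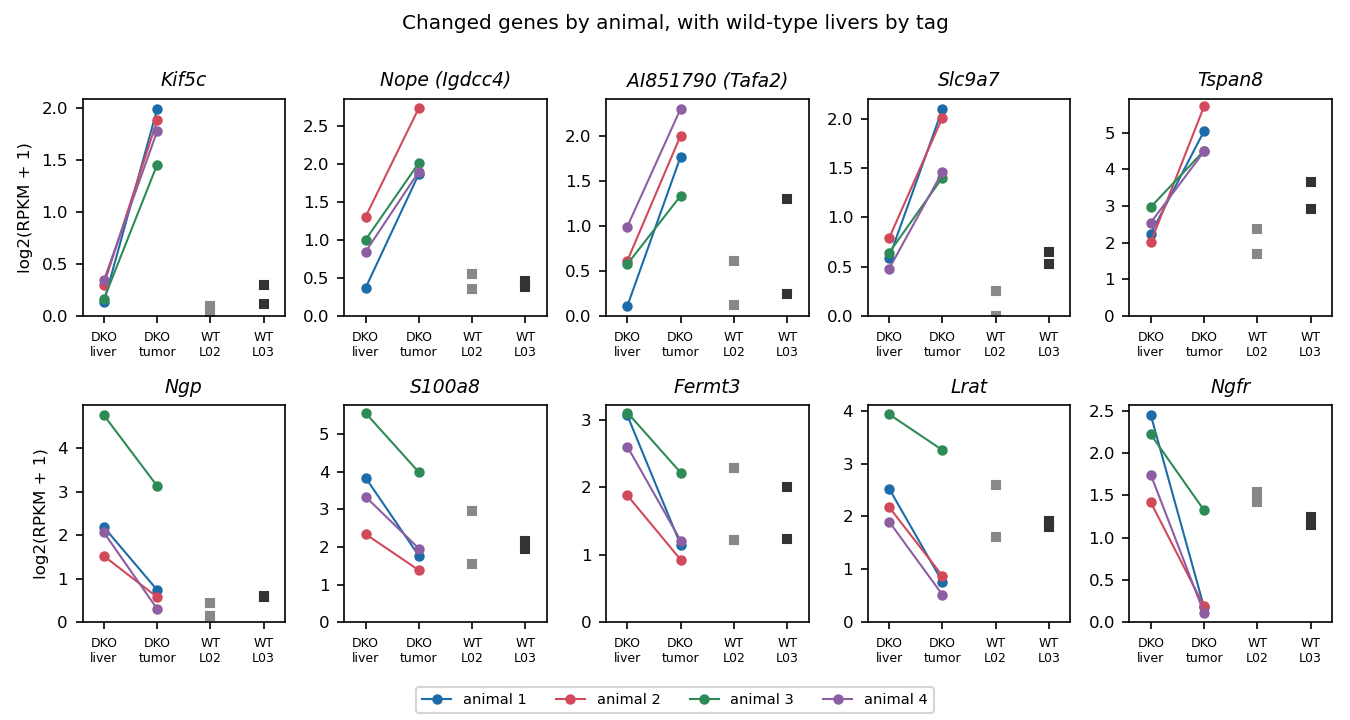
Level of 5 genes higher (upper row) and 5 genes lower (lower row) in tumor, as log2 of RPKM + 1 (vertical axes), with a line joining liver and tumor of each DKO animal and squares for the wild-type livers by tag. Kif5c, Nope, AI851790, Slc9a7 and Tspan8 are higher in all 4 tumors than in all 4 DKO livers, whereas animal 3 keeps the highest Ngp, S100a8 and Lrat in both tissues.

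Several genes lay just outside the threshold and are given as values. Pygb, glycogen phosphorylase of brain and fetal type, was at 3.47, 9.50, 12.3 and 4.24 RPKM in livers and 15.9, 28.7, 19.6 and 18.2 RPKM in tumors, above the 1.47 to 3.75 RPKM of wild-type livers (1.48, wild-type difference 0.59, limma adjusted p = 0.0512). Ndrg1, a gene induced by low oxygen and stress, was at 12.1, 11.9, 11.6 and 9.78 RPKM in livers and 21.7, 45.6, 27.1 and 30.8 RPKM in tumors (1.34, wild-type difference 0.66, limma adjusted p = 0.0510, and 0.0213 with median-of-ratios scaling). Both were higher in every tumor than in every DKO liver. Hgf, the hepatocyte growth factor made by stellate cells, was at 5.37, 2.71, 10.9 and 2.82 RPKM in livers and 1.0, 0.972, 6.22 and 0.459 RPKM in tumors (-1.17, wild-type difference -0.004, limma adjusted p = 0.0591). The gene 1100001G20Rik, now Wfdc21, was at 1119, 325, 296 and 181 RPKM in livers and 216, 41.7, 152 and 46.8 RPKM in tumors (-2.05, wild-type difference -0.47, limma adjusted p = 0.0512). Cpe, carboxypeptidase E, which trims prohormones, was at 4.03, 4.14, 4.5 and 3.97 RPKM in the livers and at 31.2, 38.1, 5.05 and 34.7 RPKM in the tumors. Only tumor 3 lacked the higher Cpe level (2.15, wild-type difference -0.24, limma adjusted p = 0.108). Cpe was named because animal 3 stood apart, so a fit without animal 3 is no test of it.

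For 38 lists of liver cell types and pathways, 817 of 880 members could be tested, and tumor minus liver was summarised by the list median, beside -0.09 over all genes. In 33 of these lists, with 741 members tested, no member passed the adjusted test in limma, nor by limma-voom on reads recovered from the RPKM. Of these members 196 had an unadjusted p under 0.05, beside 16.9% of all genes tested (460 higher and 1421 lower). Whatever the p, 4165 of 11121 genes were higher and 6956 lower, to be set beside the direction counts below. The levels below are therefore descriptions of direction and size unless a passing gene is named. For genes that did not pass, an adjusted p without 1 animal is given only where that omission brought it under 0.05. Results of leaving out the other animals are not given for them. Over all genes, the 70 calls became 20 without animal 1, 259 without animal 3 and 449 without animal 4. These p-values were thus picked and are no evidence of a change.

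**Figure D3:**
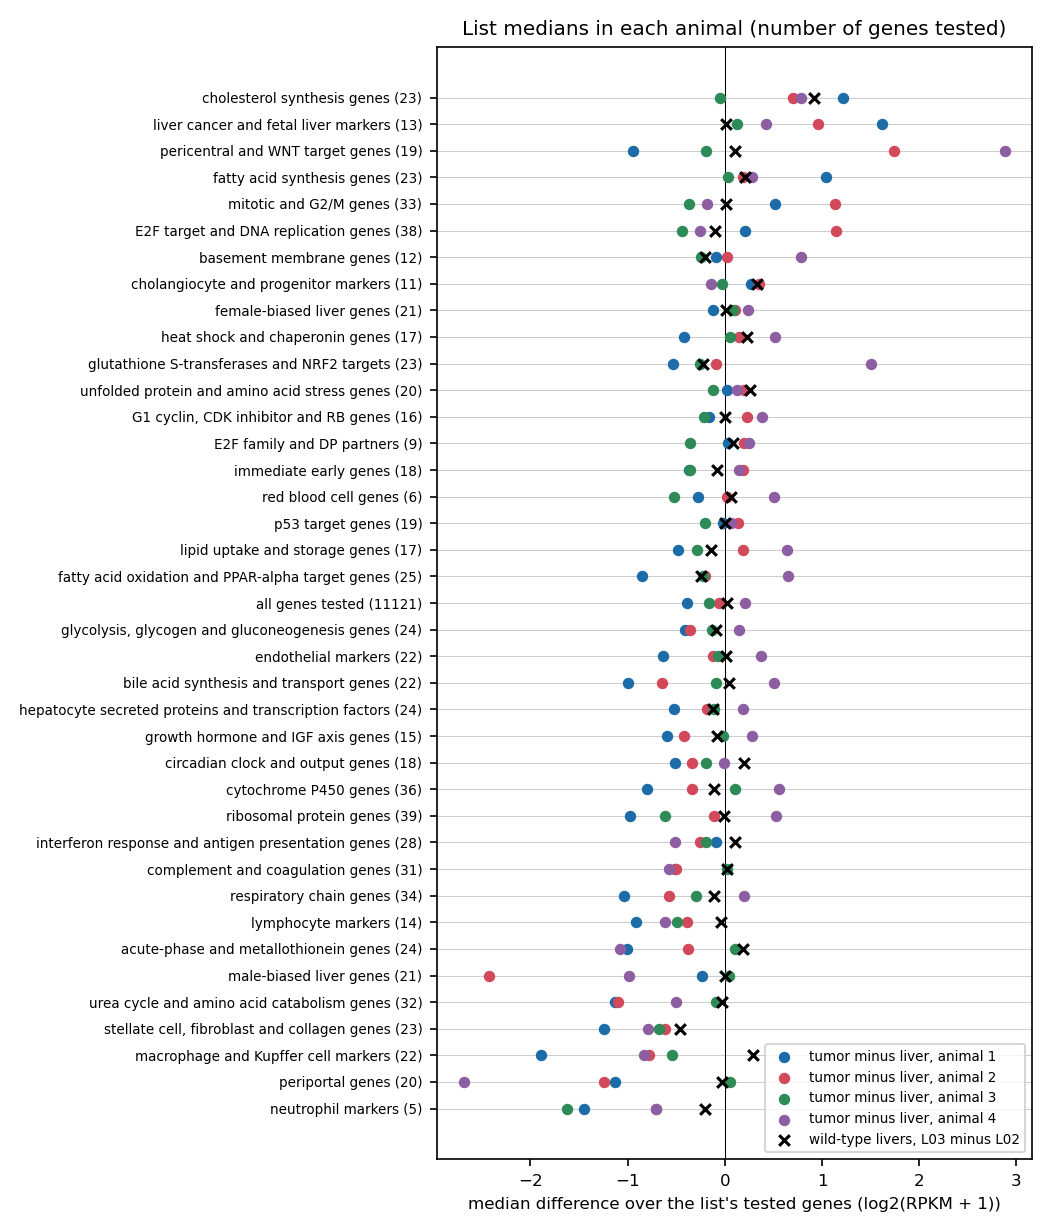
Median tumor minus liver difference (horizontal axis, log2 of RPKM + 1) of 38 gene lists and of all genes tested (vertical axis), with 1 dot per animal and a cross for the L03 minus L02 difference of wild-type livers. Neutrophil, periportal and macrophage lists lie lowest at -1.44, -1.26 and -1.05, and cholesterol synthesis highest at 0.87 with a wild-type median of 0.92.

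Macrophage and Kupffer cell markers were lower in tumor: 20 of 22 had a lower fitted level (6956 of 11121 over all genes), 14 of them in all 4 pairs (16.4% over all genes), and the list median was -1.05, with 0.29 in the opposite direction between wild-type tags. None passed the adjusted test in limma or voom, and 16 were lower at an unadjusted p under 0.05 (1421 of 11121 over all genes). Clec4f, a Kupffer cell lectin chosen after its values were seen, was at 150, 60.3, 121 and 99.3 RPKM in livers and 13.5, 20.4, 81.2 and 2.63 RPKM in tumors (-2.56, wild-type difference 0.31, limma adjusted p = 0.143). Timd4, a receptor for phosphatidylserine on resident Kupffer cells, was at 12.3, 5.27, 6.12 and 6.69 RPKM in livers and 2.39, 1.56, 3.96 and 1.22 RPKM in tumors, with no overlap (-1.39, wild-type difference -0.13, limma adjusted p = 0.0684, and 0.0075 without animal 3). C1qa, a subunit of complement C1q made by macrophages and also chosen after its values were seen, was at 93.8, 18, 73.4 and 29.6 RPKM in livers and 10.9, 7.71, 25.2 and 12.6 RPKM in tumors, at least 2-fold lower in every pair (-1.70, wild-type difference -0.26, limma adjusted p = 0.0793). Summed over the 22 markers, RPKM was 1229, 443.7, 1034 and 654.9 in livers and 345.6, 264.8, 677.2 and 283.8 in tumors, against 265.3 to 723.6 in wild-type livers. Each tumor was below its own liver, the ranges overlapped, and the tumors were within the wild-type range or close to its lower end. Exceptions were Gpnmb (1.36) and Cd14 (0.17), macrophage genes that were higher in all 4 tumors. Neither passed the adjusted test, and both had an unadjusted p under 0.05 (460 of 11121 genes were higher at that level).

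Lymphocyte and interferon genes went the same way. All 14 lymphocyte markers tested, of 21 on the list, were lower, 11 in all 4 pairs (16.4% over all genes), with a median of -0.61. At an unadjusted p under 0.05, 12 were lower, beside 1421 of 11121 over all genes. Nkg7, a granule protein of NK and cytotoxic T cells, was at 2.44, 1.35, 2.90 and 1.86 RPKM in livers and 0.308, 0.581, 0.946 and 0.327 RPKM in tumors, every tumor below every DKO liver (-1.02, wild-type difference -0.46, limma adjusted p = 0.0512). Of 28 interferon response and antigen presentation genes 23 were lower, 12 in all 4 pairs (median -0.32), beside 6956 of 11121 and 16.4% over all genes. Only 6 were lower at an unadjusted p under 0.05, beside 1421 of 11121 over all genes. Irf7, the factor that drives type I interferon genes, was at 16.1, 9.42, 68.8 and 15.8 RPKM in livers and 4.79, 2.28, 48.7 and 3.06 RPKM in tumors (-1.44, wild-type difference 0.91, limma adjusted p = 0.0684), high in both tissues of animal 3. The part that macrophage and lymphocyte RNA has in the lower interferon genes was not tested.

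Stellate cell, fibroblast and collagen genes were lower as well, but here the wild-type tag difference went the same way. Of 23 tested, 22 were lower, 18 of them in all 4 pairs (16.4% over all genes), and 5 passed (Col1a2, Col6a1, Col6a2, Postn and Lrat), where 0.315% of all genes passed downward. The median was -0.80, the wild-type median -0.46, and with the tag term the median was -0.01. Lrat, together with Ngfr, Tcf21 and Hgf described above, had little of the wild-type difference, whereas the 3 collagen genes that passed had a wild-type difference at least as large as their tumor difference. Dcn, decorin, a proteoglycan of stellate and portal fibroblasts chosen after its values were seen, was at 174, 69.5, 224 and 57.6 RPKM in livers and 46.7, 38.2, 170 and 32.9 RPKM in tumors (-0.98, not passing). Acta2, the smooth muscle actin of activated stellate cells, was at 15.5, 11.4, 21.1 and 11 RPKM in livers and 3.56, 4.64, 14.5 and 2.84 RPKM in tumors, with 7.67 and 9.43 RPKM in L02 and 1.84 and 2.13 RPKM in L03 wild-type livers (limma adjusted p = 0.0772).

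Endothelial markers split. The list median was -0.16 and animal 4 stood at 0.37 while animal 1 stood at -0.64, beside 0.21 and -0.39 over all genes. The list as a whole had no common direction. Esm1, a secreted proteoglycan of endothelial tip cells, was at 0.315, 1.47, 5.63 and 0.308 RPKM in livers and 11.7, 6.85, 10.2 and 15.8 RPKM in tumors, and at 0.179 to 0.960 RPKM in wild-type livers. All 4 tumors were above all 8 livers (2.35, wild-type difference 0.46, limma adjusted p = 0.0996, and 0.0116 without animal 3). Apln, the ligand of the apelin receptor and another tip cell gene, was at 0.210, 0.190, 0.515 and 0.308 RPKM in livers and 1.51, 1.43, 1.35 and 8.73 RPKM in tumors. Wild-type livers had 0.199 and 0.223 RPKM of Apln with tag L02 and 1.26 and 0.915 RPKM with tag L03, so its wild-type difference of 0.78 was 0.555 times the tumor difference and wild-type liver 3 was near tumor 3. Clec4g, a lectin of sinusoidal endothelium, was in the opposite direction at 59.1, 41.8, 35.3 and 42.1 RPKM in livers and 9.84, 24.9, 31.4 and 1.90 RPKM in tumors, again without overlap. In basement membrane, Nid1 (nidogen-1) was at 5.65, 7.71, 18.5 and 16.7 RPKM in livers and 63.1, 28.5, 22.9 and 32.5 RPKM in tumors, against 3.18 to 5.46 RPKM in wild-type livers. Col18a1, whose C-terminal end is endostatin, was at 162 to 234 RPKM in livers and 102 to 140 RPKM in tumors, with a wild-type difference (-0.59) 0.865 times as large as the tumor difference.

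Pericentral and WNT target genes were the least alike between tumors. Of 19 tested, 18 had a higher fitted level in tumor, but only 1 in all 4 pairs, and the median over animals 1 to 4 was -0.94, 1.74, -0.20 and 2.88. Glul, glutamine synthetase and the classical mark of the hepatocytes at the central vein, was at 200, 128, 167 and 110 RPKM in livers and 53.2, 942, 167 and 2502 RPKM in tumors, wild-type livers being at 144 to 235 RPKM. Axin2, a feedback inhibitor and general WNT target, was at 2.83, 1.26, 1.94 and 0.658 RPKM in livers and 0.530, 10.3, 1.59 and 10.6 RPKM in tumors. Lgr5, the R-spondin receptor, was at 0.755, 0.212, 0.362 and 0.229 RPKM in livers and 0.133, 4.28, 0.549 and 5.14 RPKM in tumors. For these 3 genes tumors 2 and 4 were above every liver, tumor 3 was near its own liver and tumor 1 was below every DKO liver. Rhbg, an ammonia transporter, was at 2.69, 40.8, 3.88 and 80.8 RPKM in tumors against 1.51 to 4.58 RPKM in livers, and Oat, ornithine aminotransferase, at 48.5, 127, 206 and 3056 RPKM against 130 to 232 RPKM. These genes were chosen after their values were seen. Since the tumors moved in opposite directions, the paired difference of Glul was 1.37 with a standard error of 0.97 (limma, adjusted p = 0.543). Slc1a4, a neutral amino acid transporter, was the member higher in all 4 tumors, at 1.56, 2.32, 2.90 and 1.76 RPKM in livers and 8.80, 10.1, 3.33 and 15.0 RPKM in tumors (1.59, wild-type difference 0.07, limma adjusted p = 0.111, and 0.00406 without animal 3).

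Periportal genes were lower in 3 of the 4 tumors. Of 20 tested, 18 were lower, 7 in all 4 pairs (16.4% over all genes), with a median of -1.26 and medians of -1.13, -1.25, 0.05 and -2.68 in animals 1 to 4. Gls2, Sds, Cyp2f2 and Cdh1, given next, were chosen after their values were seen. Gls2, the liver glutaminase, was at 226, 225, 118 and 191 RPKM in livers and 87.5, 75.2, 142 and 6.90 RPKM in tumors. Sds, serine dehydratase, was at 185, 106, 125 and 207 RPKM in livers and 30.5, 26.2, 86.5 and 4.12 RPKM in tumors, every tumor below every DKO liver (-2.60, wild-type difference 0.07, limma adjusted p = 0.157). Cyp2f2, another periportal gene, was at 432, 1276, 968 and 603 RPKM in livers and 976, 233, 1096 and 48.1 RPKM in tumors, so tumor 1 did not share its low level. Tumor 1 was low for the pericentral genes and for Gls2 and Sds alike, whereas tumor 4 was highest for the pericentral and lowest for the periportal genes. Members of the list in the other direction were Cdh1, E-cadherin, at 2.87, 10.1, 20.1 and 15.3 RPKM in livers and 35.0, 39.3, 29.1 and 26 RPKM in tumors, and Apoa4. Apoa4, an apolipoprotein, was at 195, 580, 408 and 200 RPKM in livers and 3238, 1978, 922 and 597 RPKM in tumors, at least 2-fold higher in every pair (2.14, wild-type difference 0.16, limma adjusted p = 0.103).

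Urea cycle and amino acid catabolism genes were lower in 31 of 32 cases, 13 in all 4 pairs (16.4% over all genes), with a median of -0.77 and a wild-type median of -0.03. Asl, argininosuccinate lyase, was at 440, 349, 246 and 240 RPKM in livers and 86.9, 82.8, 196 and 86.8 RPKM in tumors, all tumors below all DKO livers (-1.54, wild-type difference -0.17, limma adjusted p = 0.108, and 0.0198 without animal 3). Ass1, argininosuccinate synthase, the step before it, was at 520, 529, 384 and 373 RPKM in livers and 209, 146, 313 and 68.1 RPKM in tumors. Cps1, which feeds ammonia into the cycle, was chosen after its values were seen. It was at 685, 832, 719 and 828 RPKM in livers and 537, 386, 976 and 183 RPKM in tumors, with tumor 3 above its liver. Median differences of the list were -1.14 and -1.10 in animals 1 and 2, -0.09 in animal 3 and -0.51 in animal 4.

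**Figure D4:**
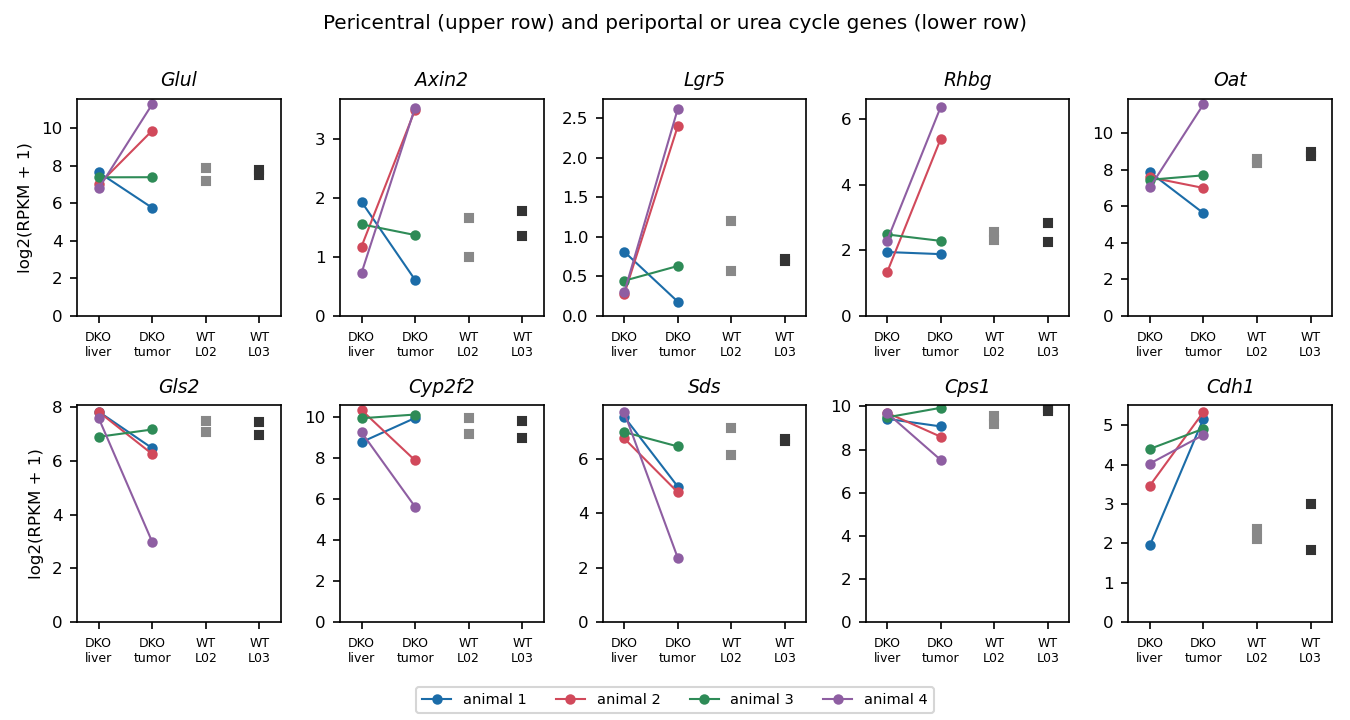
Level as log2 of RPKM + 1 (vertical axes) of 5 pericentral genes (upper row) and 5 periportal or urea cycle genes (lower row), with a line joining liver and tumor of each DKO animal and squares for wild-type livers by tag. Tumors 2 and 4 are above their livers for Glul, Axin2, Lgr5 and Rhbg, tumor 1 is below its liver for all 5, and Gls2 and Sds are lowest in tumor 4.

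Drug-metabolising genes differed from animal to animal. Over 36 cytochrome P450 genes the median was -0.26, with -0.80, -0.34, 0.10 and 0.56 in animals 1 to 4. The medians over all genes were -0.39, -0.06, -0.16 and 0.21. Over 23 glutathione S-transferase and NRF2 target genes the median was 0.09, with 1.5 in animal 4 and -0.53 to -0.09 in the other 3, and -0.28 without animal 4. Gstm3 was at 29.5, 42.4, 218 and 26.8 RPKM in livers and 93.4, 190, 183 and 766 RPKM in tumors. Cyp1a2, also counted as a pericentral gene, was at 228, 366.5, 227 and 54.9 RPKM in livers and 42.3, 393, 206 and 1536 RPKM in tumors, far lower in tumor 1 and far higher in tumor 4. Hmox1, heme oxygenase, had differences of -1.83, -0.39, -0.75 and -1.92, lower in all 4 animals. Cyp8b1, the sterol 12-alpha-hydroxylase of cholic acid synthesis, was at 164, 376, 81.2 and 73.9 RPKM in livers and 14.6, 82.8, 71.1 and 17.8 RPKM in tumors (-1.94, wild-type difference -0.66, limma adjusted p = 0.126, and 0.00706 without animal 3). Cyp2u1, a fatty acid hydroxylase, was at 11, 29.7, 10.8 and 13.3 RPKM in livers and 1.73, 4.17, 10.4 and 0.846 RPKM in tumors, below every DKO liver (-1.93, wild-type difference -0.36, limma adjusted p = 0.122, and 0.00143 without animal 3).

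Cholesterol synthesis genes were higher in tumor, 22 of 23 with a median of 0.87, and as much higher in L03 than in L02 wild-type livers, with a median of 0.92. With the tag term the median was -0.10. Sqle, squalene epoxidase, a list member given as an example, was at 3.94, 24.5, 54.2 and 82.6 RPKM in livers and 76.2, 73.8, 64.1 and 143 RPKM in tumors, each tumor above its own liver. Wild-type livers had 22.9 and 47.9 RPKM with tag L02 and 141 and 42 RPKM with tag L03, so wild-type liver 3 was above 3 of the 4 tumors. Fatty acid genes had less of the wild-type difference (16 of 23 higher, 10 in all 4 pairs beside 7.89% over all genes, median 0.40, wild type 0.21). Scd2, a stearoyl-CoA desaturase, was at 7.09, 9.16, 9.34 and 4.47 RPKM in livers and 27.1, 50.4, 15.4 and 164 RPKM in tumors, with a wild-type difference of 0.81 beside a tumor difference of 2.43. Acsl3, which activates long-chain fatty acids, was at 4.29, 4.56, 7.84 and 5.59 RPKM in livers and 11.3, 14.3, 11.2 and 12.3 RPKM in tumors (1.04, wild-type difference 0.55, limma adjusted p = 0.0848). Lpl, lipoprotein lipase, which adult liver makes little of, was at 20.9, 25.9, 34.0 and 15.9 RPKM in livers and 82.8, 102, 40.1 and 79.7 RPKM in tumors (1.59, wild-type difference 0.69, limma adjusted p = 0.0971, and 0.00711 without animal 3). For these 3 genes every tumor was above every DKO liver. Of the 23 fatty acid genes tested, 2 (Scd2 and Acsl3) had all tumors above and 1 (Mlxipl) all tumors below. Over all genes tested, 6.1% had groups that did not overlap.

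Cell division genes were higher in tumors 1 and 2 than in the liver of the same animal, and lower in tumors 3 and 4. Among 33 mitotic and G2/M genes 31 had a higher fitted level, 1 in all 4 pairs, with a median of 0.30 and medians of 0.52, 1.13, -0.37 and -0.19 in animals 1 to 4; 0 members had an unadjusted p under 0.05, and 0 passed in limma or voom. Summed over 40 genes, RPKM was 25.83, 23.92, 88.81 and 52.24 in livers, 53.78, 113.6, 60.51 and 41.33 in tumors and 17.96 to 31.72 in wild-type livers. Livers 3 and 4 thus already held more of this RNA than any wild-type liver, and livers 1 and 2 did not. Without animal 2 the list median was 0.00. Top2a, the topoisomerase of dividing cells, chosen after its values were seen, was at 0.571, 0.688, 2.61 and 1.74 RPKM in livers and 2.34, 5.18, 2.28 and 1.29 RPKM in tumors. Hmmr, a spindle protein, was at 0.281, 0.113, 0.529 and 0.702 RPKM in livers and 0.746, 1.67, 0.634 and 0.716 RPKM in tumors, the 1 mitotic gene that was higher in all 4 pairs (0.45, wild-type difference -0.01, limma adjusted p = 0.336).

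Replication genes, which include known targets of E2F7 and E2F8, had no common direction: 28 of 38 were higher and 10 lower, 2 in all 4 pairs each way, with a median of 0.21 (0.20, 1.14, -0.45 and -0.25 by animal) that became -0.14 without animal 2. Mcm10, which loads polymerase at origins, was lower in every tumor than in its own liver, at 8.89, 28.5, 19.4 and 12.3 RPKM in livers and 4.83, 8.88, 14.6 and 5.75 RPKM in tumors, with 19.5 to 42.7 RPKM in wild-type livers (-0.93, wild-type difference 0.30, limma adjusted p = 0.119). Tk1, thymidine kinase, was at 9.66, 9.50, 14.3 and 7.29 RPKM in livers and 4.72, 4.36, 7.20 and 5.68 RPKM in tumors, all tumors below all DKO livers (-0.77, wild-type difference -0.40, limma adjusted p = 0.116, and 0.0313 without animal 4). Mcm5, of the replicative helicase and chosen after its values were seen, followed the animals instead, at 1.23, 1.46, 12.1 and 4.95 RPKM in livers and 2.77, 9.94, 6.25 and 1.85 RPKM in tumors.

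The promoters of Hmmr and Mcm10, a mitotic and a replication gene that differed in opposite directions in all 4 pairs, are shown with their motif matches. Hmmr differed by only 0.096 in animal 3 and 0.012 in animal 4. They are the 250 bases before each start in RefSeq, build GRCm38.p6: chr11:40733438-40733687 on the minus strand for Hmmr and chr2:5012792-5013041 on the minus strand for Mcm10. Both are written 5' to 3', with CCAAT, or ATTGG where it lies on the other strand, in capitals.
Hmmr: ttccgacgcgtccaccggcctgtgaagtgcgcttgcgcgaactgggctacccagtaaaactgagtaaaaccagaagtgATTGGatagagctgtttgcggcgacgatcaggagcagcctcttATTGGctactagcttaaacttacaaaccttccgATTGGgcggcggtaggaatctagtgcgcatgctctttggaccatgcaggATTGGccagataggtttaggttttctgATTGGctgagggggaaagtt
Mcm10: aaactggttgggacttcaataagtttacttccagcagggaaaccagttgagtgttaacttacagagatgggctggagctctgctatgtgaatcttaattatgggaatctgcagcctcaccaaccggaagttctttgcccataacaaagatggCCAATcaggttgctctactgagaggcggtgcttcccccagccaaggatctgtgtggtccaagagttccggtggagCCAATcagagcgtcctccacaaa
Hmmr held 5 such matches and Mcm10 held 2. The promoters of Nusap1, a mitotic gene, and of Tk1 were searched too, are not printed and held 0 each. CCAAT on either strand was found before 80.6% of 31 mitotic genes and 62.5% of 32 replication genes, against 37.5% of all 27025 genes with a promoter. A TTTGAA match, the core of the CHR element, was present in 35.5%, 12.5% and 18.3%. Any of TTTCCCGC, TTTGGCGC, TTTCGCGC and TTTGCCGC, forms of the E2F motif, was present in 3.2%, 28.1% and 2.2%. Neither printed promoter holds TTTGAA or these E2F forms. A match is a description of the letters in this window and not a site.

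E2f7 itself was at 0.211, 0.400, 0.237 and 0.276 RPKM in livers and 0.240, 0.259, 0.179 and 0.0365 RPKM in tumors, too low to be tested. E2f8 was at 8.07, 20.8, 7.36 and 2.80 RPKM in livers and 1.66, 12.2, 3.68 and 5.23 RPKM in tumors (-0.65, wild-type difference -0.14, limma adjusted p = 0.422), lower in tumors 1 to 3 and higher in tumor 4. Wild-type livers had 4.30, 1.66, 2.26 and 2.56 RPKM of E2f8 and 0.103 to 0.200 RPKM of E2f7, so both mean levels were higher in DKO livers (9.75 and 0.281 RPKM) than in wild-type livers (2.69 and 0.138 RPKM). Without animal 4, the only animal with more E2f8 in tumor, the tumor minus liver difference of E2f8 was -1.11 (limma, adjusted p = 0.0415). That fit leaves out the only pair in the other direction and is no evidence of a fall. No source used here names the exons that were deleted, and so these levels are no check of the genotype. Among G1 regulators Cdk6 (1.10, wild-type difference 0.10) and Cdkn2c, the inhibitor p18 (1.22, wild-type difference -0.17), did not pass with all 4 animals, and both passed in limma without animal 3 (adjusted p = 0.0152 and 0.00588). The p53 target genes had a median of -0.03, below 0 in this scaling and above 0 in median-of-ratios and quantile scaling. Btg2, an antiproliferative p53 target, was at 4.18, 7.24, 14.2 and 9.93 RPKM in livers and 24.9, 18.2, 19.8 and 12.5 RPKM in tumors.

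Liver cancer and fetal liver markers had a median of 0.78, with 10 of 13 higher, 6 in all 4 pairs (7.89% over all genes). The 2 that passed were Mdk upward and Igf2 downward, the genes split by tag described above, where 0.315% of all genes passed in each direction. Afp, alpha-fetoprotein of fetal liver and liver cancer, chosen after its values were seen, was at 1.51, 2.63, 2.37 and 3.10 RPKM in livers and 10.8, 13, 3.05 and 54.1 RPKM in tumors (2.05, wild-type difference -0.58, limma adjusted p = 0.131, and 0.0075 without animal 3). Prom1, CD133, was at 0.700, 0.870, 2.19 and 3.94 RPKM in livers and 13.4, 7.16, 3.04 and 14.7 RPKM in tumors (1.8, wild-type difference 0.34, limma adjusted p = 0.108, and 0.00467 without animal 3), and its relative Prom2, chosen after its values were seen, was at 0.297, 2.64, 1.01 and 2.26 RPKM in livers and 12.2, 7.91, 4.28 and 6.76 RPKM in tumors. Afp, Prom1 and Prom2 were higher in every tumor than in its liver, least so in animal 3 for Afp and Prom1. Gpc3, glypican-3, had no such pattern, at 0.640, 0.363, 17.0 and 0.245 RPKM in livers and 0.371, 1.65, 8.79 and 0.182 RPKM in tumors. Of the cholangiocyte and progenitor markers 7 of 11 were higher (median 0.21, wild type 0.33), and Tspan8 and Tacstd1, now Epcam, passed (0.315% of all genes passed upward). Tacstd1 rose by 1.24, less than the wild-type tag difference of 1.75.

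Male-biased liver genes were lower, 20 of 21 (6956 of 11121 over all genes) with a median of -0.74. This came mostly through animals 2 (-2.43) and 4 (-0.99), and the median without animal 2 was -0.31. Mup3, a major urinary protein whose reads may be shared with near-identical copies, was at 790, 6878, 2428 and 2234 RPKM in livers and 823, 756, 2506 and 184 RPKM in tumors. Female-biased genes had a median of 0.19. Igfals, the growth hormone-dependent binding partner of IGF1, was at 60.6, 90.7, 55.9 and 52.5 RPKM in livers and 22.2, 15.9, 47.6 and 16.1 RPKM in tumors (-1.43, wild-type difference -0.27, limma adjusted p = 0.116, and 0.0152 without animal 3). Acute-phase and metallothionein genes were lower in 22 of 24 cases (median -0.69), 5 of them in all 4 pairs (16.4% over all genes). Complement and coagulation genes were lower in 27 of 31 (median -0.35), again beside 6956 of 11121 over all genes. Respiratory chain genes were lower in 33 of 34 cases, 11 of them in all 4 pairs (16.4% over all genes). Only 5 were lower at an unadjusted p under 0.05, beside 1421 of 11121 over all genes. Their medians were -1.04, -0.57, -0.30 and 0.20 by animal, beside -0.39, -0.06, -0.16 and 0.21 over all genes. The list median was -0.45 in all, -0.20 without animal 1 and -0.24 with quantile scaling. Ndufb8, of complex I, was at 300, 346, 320 and 167 RPKM in livers and 102, 131, 166 and 138 RPKM in tumors (-1.04, wild-type difference -0.57, limma adjusted p = 0.147, and 0.0326 without animal 4), and wild-type livers ranged from 131 to 256 RPKM. Clock genes had a median of -0.20 in tumor and 0.20 between wild-type tags.

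Some genes stood apart in 1 animal only, and are described without a test. In animal 1, Lepr, the leptin receptor, was 5.15 lower in tumor than in a liver at 50.4 RPKM. In animal 2, Elovl3 (-3.36), Cyp4a12a (-3.33) and Mup1 (-3.53), male-biased genes, stood lowest; reads of Mup1 may be shared with its copies. In animal 3, Cpe differed by 0.14 where the others differed by 2.68 to 2.92. In animal 4, A1bg, a plasma protein gene, was 6.17 lower in tumor, from 249.7 RPKM in liver 4 against 2.79 to 5.76 RPKM in the other 3 livers, and Csad, of taurine synthesis, was 3.44 higher. Csad was lower in the tumors of the other 3 animals, by as much in animal 1 (-3.46, then -1.56 and -0.95 in animals 2 and 3).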

How the data were processed

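Poly(A) RNA of 4 DKO tumors, 4 DKO livers and 4 wild-type livers was measured. The deposited values are RPKM per RefSeq transcript, computed by the authors, and per the submitters' processing notes BWA and mm9 were used; the tool that counted reads and the read strand are not given in the sources used here. The longest transcript was kept for each of 19012 gene symbols, and 18507 symbols matched the current gene table. A gene entered the test when 4 or more of the 8 DKO libraries had it at 0.5 RPKM or above (11121 genes). The test was limma (version 3.58.1, R 4.3.3) on log2(RPKM + 1), two-sided, with the animal as a block, an intensity trend and robust shrinkage, and Benjamini-Hochberg adjustment at 0.05. Fold changes on this scale understate those of low genes. With 4 pairs an exact sign-flip test of 1 gene cannot give a p below 0.125. Pairs came from the animal code shared by tumor and liver. The correlations of same-animal deviations from the group means were 0.117, 0.348, 0.363 and 0.002. Tumors 2 and 3 correlated most with their own livers. Tumor 1 correlated more with liver 4 (0.152) and tumor 4 more with liver 1 (0.092), so for animals 1 and 4 the levels do not single out the coded pair. The L03 minus L02 difference is that of the means of 2 wild-type livers each, with no test of its own. Reads recovered from RPKM were whole, within 0.05 of a read, for at least 99.98% of values in every library, and were used only for voom, an alternative. Tables and figures used Python 3.11.15 with pandas 2.3.3, numpy 2.4.6 and matplotlib 3.10.9, and the fit was checked on simulated data.

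Genes were named by a rule: the 12 largest rises and 12 largest falls among passing genes with a group mean of at least 5 RPKM and 1 direction in all pairs, filled by smallest p, up to 4 genes set aside for the tag, the leading members of each list, and 3 genes per animal that stood apart there. Others are said to be chosen after their values were seen, or are list members given as examples. The members, lists and examples were chosen with earlier results of these data known. Of the genes that this rule gives, 2 are not reported here.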

Additional observations from a re-analysis of the deposited data

Results flagged for a closer look

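In groups of 4 samples, a sample was listed here when its gap to the nearest other sample, divided by the range of the group, exceeded Dixon's 95% critical value for groups of that size. Of 288 groups examined, 24 were listed. Chance lists about 1 in 20 groups, but that rate is no fair yardstick here, because some of the genes were named for a difference that stood apart in 1 animal or were chosen after their values were seen. No explanation was tested for any of them.

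Tumor 3 stood above the other tumors for the stellate genes Lrat (8.545 RPKM against 0.4358 to 0.8396), Ngfr (1.501 against 0.07827 to 0.1389) and Tcf21 (5.292 against 0.2166 to 0.408). It was also highest for the neutrophil gene Ngp (7.757 against 0.2381 to 0.6727), for Tacstd1 (7.024 against 3.362 to 3.801), Asl (195.5 against 82.85 to 86.86), Zfp36 (27.82 against 17.75 to 18.91) and Mup1 (3.852 against 0.7652 to 0.8799), and lowest for Cpe (5.046 against 31.23 to 38.07). Liver 3 stood above the other DKO livers for Ccl2 (7.551 RPKM against 1.334 to 1.472), Elovl7 (2.107 against 0.4052 to 0.4883), Sprr1a (2.26 against 0.2094 to 0.4095), Krt20 (0.4204 against 0 to 0.05587) and Guca2b (0.6762 against 0 in the other 3).

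Tumor 4 was highest for Apln (8.731 RPKM against 1.355 to 1.513) and E2f3 (3.293 against 2.061 to 2.155). Liver 4 was highest for A1bg (249.7 against 2.788 to 5.761) and lowest for Creb3l3 (35.71 against 85.23 to 90.39). Tumor 2 was highest for Hmmr (1.672 against 0.6338 to 0.7455) and Nope (5.689 against 2.663 to 3.05). Liver 2 was highest for Elovl3 (35.59 against 1.033 to 2.202) and lowest for Per1 (2.947 against 7.424 to 8.52). Tumor 1 was highest for Lcn13, now Obp2a (20.83 against 0.09334 to 0.5886), and lowest for Hcst (0 against 0.1506 to 0.1781).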

How the results depend on the processing

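The count of 70 genes passing within pairs became 54 without the replicate block over the 8 DKO libraries (49 of them shared), 1 without the block over all 12 libraries, 0 with a tag term beside the replicate block, 8 among genes with a mean of at least 5 RPKM, 45 with median-of-ratios scaling and 9 when all 4 tumors also had to lie beyond both L03 wild-type livers, an alternative chosen after seeing the data. Leaving out 1 animal gave 20 to 449. An offset of 0.1, no filter on low values, quantile normalization, no robust shrinkage, voom and the transcript with the highest mean gave 52 to 94. Genes at least 2-fold apart in all 4 pairs numbered 41, and 108 with an offset of 0.1. Genes set aside for the tag numbered 26, and 57 where the wild-type difference had to be only 0.5 times as large. With the tag term 10 of the 34 named genes that passed changed direction: Krt20 (-0.033), Spib (-0.425), Lypd2 (-0.302), Igf2 (0.307), Mdk (-0.014), Tacstd1 (-0.511), Col1a2 (0.257), Postn (0.105), Col6a1 (0.099) and Col6a2 (0.059). That term rests on 2 against 2 wild-type livers. Of those 34 genes, 11 passed without each animal in turn. Of 569 medians of the 38 lists under alternatives, 15 moved by more than the standard deviation of the 4 pair medians, and the sign changed for 5 lists with median-of-ratios scaling, 6 with quantile normalization and 9 with the tag term. The causes of these shifts were not tested. Depth limits low genes: a gene at 0.5 RPKM rests on few reads.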
